A study of Mus musculus with 6 samples.

Results

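Single-exon assembled loci are stretches of the genome to which reads aligned, for which a transcript model of 1 exon was built, and to which no reference gene name was attached. They were found in the transcript models deposited for GL261, a mouse glioma cell line, as gene loci in which every transcript was assembled from reads, every transcript had 1 exon, and none carried a reference gene name in any of the 6 files. The rule found 2401 of 56097 loci, each with 1 transcript. Another 411 assembled loci had more than 1 exon and no name, and 53285 held at least 1 reference transcript. The rule itself used no expression value, but such a locus is listed only where reads built a model. Each of the 2401 reached at least 1.99 TPM, as deposited, in its highest library. Both groups were GL261 cells, collected 4 h after a salt was added at 1 uM: sodium chloride in 3 libraries, numbered chloride 1, 2 and 3, and sodium propionate in 3, numbered propionate 1, 4 and 5. Values given library by library below keep that order. The labels name no genotype or other agent, and do not say whether the libraries came from separate cultures, so the p-values below rest on the spread between samples, and that spread may be technical alone. Of 9 glioma and neural progenitor markers, 8 had a mean of at least 1 scaled TPM. Vim and Nes stood at 281 to 1435 and 238 to 318 TPM, whereas the means were 1.51 TPM for Olig2, 1.998 for Pdgfra and 0.933 for Gfap. The 9 summed to 1180 to 2063 TPM under chloride and 908 to 1709 under propionate. Of 6 microglia and macrophage markers only Csf1r had a mean of at least 1 TPM (1.56), with Ptprc at 0 to 0.00780 TPM and P2ry12 and Itgam listed at 0 in every library, and of 4 endothelial markers none had. Markers of other lists were present: Tubb3 of 4 neuron markers had a mean of 79.3 TPM, with Rbfox3 and Snap25 listed at 0, and Col1a1 and Acta2 of 4 fibroblast and pericyte markers had means of 88.4 and 94.5 TPM.

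A transcript assembler joins overlapping read alignments into models, and a model without a splice junction carries no splice signal from which its strand can be read. In total RNA, unspliced reads are known to come from introns of nascent transcripts, from transcription that runs past a gene's end, from upstream and enhancer transcripts, from copies of transposable elements and from genes that an annotation lacks. Quantification then divides reads among the models of a locus and reports TPM, a relative transcript abundance that is corrected for length. Levels here are scaled TPM, which is TPM divided by 1 factor per library, unless they are called deposited.

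Most of these loci had no strand. No strand was given in any library for 2123 of them, and 86 had the same strand in all 6 libraries. A further 192 had a strand in some libraries only, or in 3 cases opposite strands in different libraries. The library kit keeps strand, per the labels' protocols, but the quantifier's command line in the file headers holds no strand option. The loci were short, with a median of 361 nt (quartiles 247 and 747 nt) against 1056 nt for the assembled loci with more exons. Of the 2401, 936 were under 300 nt, 175 were over 2000 nt and 51 were over 5000 nt, and the range ran from 200 to 20457 nt. They lay on 27 chromosomes and scaffolds, with the most on chromosome 11 (192), chromosome 2 (191) and chromosome 4 (158), 13 on Y and 8 on unplaced scaffolds.

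RefSeq windows of 300 bases, 250 before a gene's start and 50 from the start on, gave the letters of a few loci. Of 32851 such windows (GRCm38.p6, the build that mm10 names), 57 shared at least 1 base with a single-exon assembled locus, each with a different locus. At 28 of the loci the gene is in RefSeq but carries no name in the deposited files, and 19 of these genes are long non-coding RNAs. In 14 of the 28 the locus ran across the start base. At the other 29 the gene is named in the files, and 2 of those loci ran across its RefSeq start base. The median GC share was 48.5% in the windows of genes that the files do not name, 61.0% in those of named genes and 52.7% over all windows. A stretch of 31 bases that also stands elsewhere among the windows, on either strand, was held by 11 of the 28 windows and by 1 of the 29, against 11.9% of all windows.

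The sequences below show how 3 loci lie against the 250 bases before a RefSeq start, and 1 locus that lies within an exon of another annotation. The 3 were picked for a visible edge among windows without repeated stretches that share at least 100 bases with a locus. All are 5′ to 3′ on the gene's strand, and capitals mark the bases inside the assembled locus. Gm32584 is chr5:36661659-36661908, minus strand, with 199 bases inside MSTRG.16536. Gm39898, a long non-coding RNA, is chr2:104818581-104818830, plus strand, with 198 bases inside MSTRG.12556. Med13, which encodes a subunit of the kinase module of the Mediator complex, is chr11:86357597-86357846, minus strand, with 123 bases inside MSTRG.3816. 4930480K23Rik is chr14:69732802-69733101, plus strand, the first 300 bases of MSTRG.7045 as GENCODE M21 gives them.
Gm32584: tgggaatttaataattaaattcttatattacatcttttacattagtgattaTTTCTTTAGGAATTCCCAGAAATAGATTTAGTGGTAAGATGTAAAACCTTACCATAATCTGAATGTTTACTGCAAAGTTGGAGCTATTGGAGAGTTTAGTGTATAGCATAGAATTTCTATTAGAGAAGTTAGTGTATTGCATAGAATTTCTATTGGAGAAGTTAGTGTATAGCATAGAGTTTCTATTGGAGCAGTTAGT
Gm39898: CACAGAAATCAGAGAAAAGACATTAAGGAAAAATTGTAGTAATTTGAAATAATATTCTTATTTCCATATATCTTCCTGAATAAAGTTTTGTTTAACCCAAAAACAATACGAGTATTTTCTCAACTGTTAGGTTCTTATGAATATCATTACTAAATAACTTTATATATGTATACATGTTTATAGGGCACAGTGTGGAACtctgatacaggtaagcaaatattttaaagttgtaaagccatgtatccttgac
Med13: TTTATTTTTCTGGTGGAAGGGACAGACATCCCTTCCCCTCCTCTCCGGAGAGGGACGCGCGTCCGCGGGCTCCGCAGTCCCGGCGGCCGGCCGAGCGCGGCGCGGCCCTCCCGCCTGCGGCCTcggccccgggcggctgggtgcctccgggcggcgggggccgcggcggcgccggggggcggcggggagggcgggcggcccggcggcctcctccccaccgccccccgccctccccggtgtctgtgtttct
4930480K23Rik: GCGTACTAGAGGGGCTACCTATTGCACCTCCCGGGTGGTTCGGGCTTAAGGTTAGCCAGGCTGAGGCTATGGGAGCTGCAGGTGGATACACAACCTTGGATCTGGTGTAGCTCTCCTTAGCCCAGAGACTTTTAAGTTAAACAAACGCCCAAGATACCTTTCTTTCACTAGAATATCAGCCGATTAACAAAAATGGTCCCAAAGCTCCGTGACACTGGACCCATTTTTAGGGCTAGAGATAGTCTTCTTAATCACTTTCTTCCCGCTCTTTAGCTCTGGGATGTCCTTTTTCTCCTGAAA

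At Gm32584 the locus began 51 bases into the window and went on to the start, and at Gm39898 it covered the far part and stopped 52 bases before the start. At Med13 it covered the far 123 bases and left 127 bases next to the start outside. MSTRG.7045 (397 nt) lies in full inside an exon of 4930480K23Rik and is 1 of 6 loci that share a base with a GENCODE M21 exon. MSTRG.16536 stood at 15.5, 20.03 and 17.1 scaled TPM under chloride and at 11.0, 19.2 and 14.0 under propionate. MSTRG.3816, upstream of Med13, stood at 12.5, 9.32 and 15.04 and at 11.2, 9.35 and 9.32 TPM in the same order. MSTRG.12556 ranged from 2.11 to 3.01 TPM under chloride and from 1.63 to 2.09 under propionate, and MSTRG.7045 from 0.358 to 2.92 TPM over all libraries. The groups overlapped at MSTRG.16536, MSTRG.3816 and MSTRG.7045, and at MSTRG.12556 the propionate libraries all lay below, with no adjusted limma p under 0.05.

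Libraries differed in depth and in how many models they covered. Bases counted per library were estimated from the median ratio of coverage to FPKM. They were 9.41, 9.47 and 9.15 Gb under chloride and 9.33, 11.3 and 11.1 Gb under propionate, so propionate 4 and 5 were deepest. Chloride 3 had coverage above 0 for 71452 models and propionate 1 for 71192, while the other 4 libraries had it for 81178 to 82370, so each group held 1 library with fewer covered models. For loci, TPM were divided by a factor of 0.966 to 1.09 per library to scale them. Propionate 4 stood far above the other 5 libraries at 15 single-exon assembled loci, which are described further on.

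Against the named genes of the files, 839 loci (34.9%) lay inside a gene's span, and none of the 2401 shared a base with a reference exon of the files, so these lay between the exons of the gene. Of the others, 358 (14.9%) were within 1 kb of a named gene, 395 (16.5%) at 1 to 5 kb, 528 (22.0%) at 5 to 50 kb and 275 (11.5%) farther away, and 6 were on scaffolds without a named gene. The median distance of the 1556 outside loci with a distance was 5.51 kb. Under 5 kb, 420 lay past the gene's end and 333 before its start (55.8% past the end), and at 5 kb or more the numbers were 425 and 378 (52.9%). Of the 86 loci with 1 strand, 21 were inside a gene of the same strand, 17 inside genes of the other strand only and 48 outside. RefSeq held a gene over 339 loci that no reference transcript of the files and no GENCODE M21 gene covered, among them 119 in long non-coding RNAs, 84 in protein-coding genes and 88 in pseudogenes. Outside the genes of all 3 sets were 1214.

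**Figure D1:**
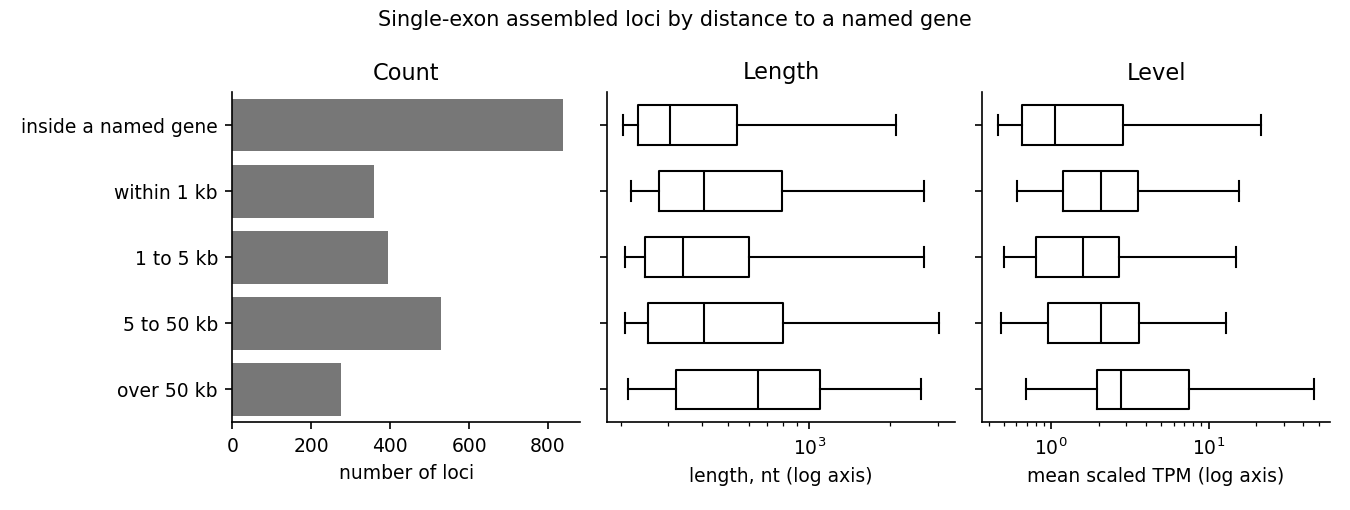
Single-exon assembled loci by position: number of loci, length in nt (log axis) and mean scaled TPM over 6 libraries (log axis), with boxes for quartiles, a line for the median and whiskers from the 5th to the 95th percentile. The loci inside named genes were the most numerous (839) and had the lowest median length (304 nt) and level (1.06 TPM), and those over 50 kb away had the highest medians (647 nt and 2.79 TPM).

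Levels differed by position (plot of number, length and level by distance). The median of the mean scaled TPM was 1.06 inside named genes, 2.06 within 1 kb, 1.58 at 1 to 5 kb, 2.08 at 5 to 50 kb and 2.79 beyond 50 kb. Loci past the end of a gene within 1 kb (204) had a median of 2.69 TPM beside 5.69 TPM for the gene, and 49.5% of them stood above the gene. Loci before a start within 1 kb (154) had a median of 1.70 TPM beside 17.5 TPM for the gene, and 17.5% stood above it. The 839 inside loci fell in 678 host genes. Of the 839, 398 (47.4%) had a higher TPM than their host, 338 had a host under 1 TPM, and the median ratio of locus to host was 80.8%. The median locus level was 2.04 TPM for the 87 loci with a host of 10 TPM or more and 1.87 TPM with a host under 1 TPM. The ratio thus varied mostly with the host. Each locus reached at least 1.99 TPM, as deposited, in its highest library, which was not required of hosts. The hosts with the most loci were Gm41335 (12), Auts2 (10), Maml2 (9), Galnt2l (7) and Coro2a (6). Auts2, which encodes a component of a Polycomb complex in neurons, stood at 2.97 TPM and its 10 loci summed to 12.2 TPM. Maml2, a coactivator of Notch signalling, stood at 3.50 TPM beside 9.24 TPM for its 9 loci. TPM is corrected for length, so such a sum grows with the number of loci and is not on the measure of the host's TPM.

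Some neighbouring loci formed rows. With gaps of at most 10 kb, 398 loci fell into 181 clusters, 29 of them with 3 or more loci. The largest was in introns of Coro2a, the gene of a coronin that binds actin, at chr4:46576975-46585048 (mm10). Its 6 loci, MSTRG.15069 to MSTRG.15074, summed to 192 scaled TPM, while Coro2a stood at 2.26 TPM, although a sum over loci is not a like measure. MSTRG.15073 (3167 nt) was the highest of them, at 78.6, 81.9 and 77.3 TPM under chloride and 78.2, 78.1 and 83.0 under propionate. MSTRG.15071 (1336 nt) gave 48.4, 46.9 and 47.5 and then 37.5, 44.5 and 47.1 TPM. A cluster of 5 loci, MSTRG.18302 to MSTRG.18306, spanned 9.36 kb at chr6:68242447-68251810, 62.9 kb from the nearest named gene, Igkv2-113, an immunoglobulin kappa variable segment. They summed to 179 TPM, and MSTRG.18305 (5392 nt) gave 93.2, 94.6 and 88.8 TPM under chloride and 81.1, 94.3 and 97.8 under propionate. At all 3 named loci the groups overlapped.

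Most loci were low. The mean over the 6 libraries was under 1 scaled TPM for 764, 1 to 2 for 524, 2 to 5 for 708, 5 to 20 for 279, 20 to 100 for 106 and at least 100 for 20. The 10 highest held 19.0% of the TPM of all 2401 on average. The median length was 811 nt among the 126 loci of at least 20 TPM and 327 nt among those under 5 TPM. Of the 126, 43 were inside a named gene and 28 were over 50 kb from any.

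The highest mean belonged to MSTRG.8702 (1093 nt, chr16:57390894-57391986), in introns of Cmss1 and Filip1l. It stood at 779, 484 and 718 scaled TPM under chloride and at 897, 604 and 523 under propionate. Filip1l, which encodes a filamin-binding protein, had means of 59.1 and 59.9 TPM. MSTRG.468 (529 nt, chr1:72564003-72564531) gave 484, 584 and 555 TPM and then 595, 598 and 563. It lies 18.7 kb before Smarcal1, the gene of a DNA annealing helicase (means of 5.53 and 7.59 TPM), as the files place that gene, and inside it as RefSeq does. MSTRG.1285 (523 nt, chr1:170314700-170315222) lies in an intron of Nos1ap as the files place that gene, and outside any RefSeq gene. Nos1ap encodes an adaptor protein of neuronal nitric oxide synthase. The locus gave 197, 209 and 172 TPM and then 199, 234 and 210, whereas Nos1ap itself had means of 0.0280 and 0 TPM. The groups overlapped at all 3.

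Long loci were among the highest. MSTRG.7375 (20457 nt, chr15:22751476-22771932), the longest of the 2401, lies in an intron of Cdh18, a cadherin gene. It stood at 233, 226 and 212 scaled TPM under chloride and at 199, 225 and 228 under propionate, with Cdh18 at means of 0.106 and 0.0893 TPM. MSTRG.5219 (10013 nt, chr12:108074411-108084423), 22.0 kb past the end of Setd3, gave 151, 156 and 142 TPM and then 138, 155 and 153. MSTRG.21931 (6801 nt, chr8:126412786-126419586), 2.93 kb before Coa6 and over Gm51604 of RefSeq, gave 182, 187 and 159 TPM and then 145, 189 and 188. In each of the 3, propionate 1 was the lowest library, and the groups overlapped. Setd3 encodes a histidine methyltransferase of actin and Coa6 a factor of cytochrome c oxidase assembly. MSTRG.23380 (1843 nt, chr9:122401673-122403515) gave 324, 349 and 293 TPM and then 273, 345 and 343. The next longest loci were low: MSTRG.1761 (11077 nt) past Arhgap18 ranged from 6.66 to 8.31 TPM and MSTRG.17490 (10874 nt) in Auts2 from 1.58 to 2.82 TPM. At both, each propionate library lay below each chloride library, and neither passed (adjusted p = 0.923 by limma).

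Loci far from any named gene were not all low. Of the loci with a mean of at least 1 TPM, the 3 farthest from one were on chromosome Y. MSTRG.24325 (1965 nt, chrY:58850999-58852963), 18162 kb from Gm28018, stood at 63.5, 62.9 and 65.4 scaled TPM under chloride and at 66.3, 58.6 and 58.4 under propionate. MSTRG.24316 (607 nt) ranged from 24.4 to 32.0 TPM and MSTRG.24319 (1213 nt) from 14.1 to 18.2 TPM. Their coefficients of variation over the 6 libraries, the SD as a share of the mean, were 5.37%, 10.9% and 11.0%, and the groups overlapped at each.

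Among loci with a strand inside a gene of the same strand, MSTRG.8518 (2810 nt, chr16:32150784-32153593) had the highest mean. It lies in an intron of Nrros, a gene of transforming growth factor beta handling in myeloid cells, and gave 20.1, 19.2 and 17.4 scaled TPM under chloride and 14.1, 20.9 and 19.4 under propionate. MSTRG.3134 in F630206G17Rik ranged from 9.55 to 21.6 TPM and MSTRG.11170 in Lipo3 from 10.1 to 11.29 TPM under chloride and 11.34 to 13.5 under propionate (adjusted p = 0.923 by limma). RefSeq places Gm18293, and not Lipo3, at MSTRG.11170. Inside genes of the other strand only, MSTRG.5412 in Gm47882 (398 nt) was highest at 111, 111 and 99.1 TPM and then 107, 114 and 114, and MSTRG.15074 in Coro2a ranged from 7.57 to 14.1 TPM. MSTRG.17852 in Gm20619 was listed at 0 in chloride 2 but gave 30.3 to 37.6 TPM in each of the other 5 libraries. A listed 0 beside such levels can be a failed estimate, which was not tested. Of all single-exon assembled loci, most of which were low, 546 were listed at 0 in at least 1 library. Past a gene's end within 5 kb, MSTRG.13143 ranged from 57.1 to 124 TPM, MSTRG.19325 from 70.7 to 89.7 and MSTRG.13826 from 60.2 to 69.6. None of the 86 loci with a strand lay before a gene's start on the other strand within 5 kb.

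The 2 libraries with fewer covered models also stood apart in the single-exon assembled loci. Over all 2401, chloride 3 had a median level of 2.75 scaled TPM and propionate 1 one of 2.40, and the other 4 libraries had medians of 1.59 to 1.77. The lower quartile was 2.39 TPM in chloride 3, 0.650 in propionate 1 and 0.358 to 0.473 in the others. In chloride 3, 56.1% of loci lay between 2 and 4 TPM and 11.4% lay under 1 TPM, whereas in chloride 1 those shares were 22.9% and 40.2%. Each locus reached at least 1.99 TPM, as deposited, in its highest library. That library was chloride 3 for 1145 loci (47.7%), propionate 1 for 642 (26.7%) and 1 of the other 4 for 120 to 199 each. Among tested loci, chloride 3 was highest for 35.1% of single-exon assembled loci, 40.6% of assembled loci with more exons and 20.3% of loci with a reference transcript, or 30.9% of the latter under 5 TPM. Where chloride 3 was highest, the median length was 324 nt, and the median level was 2.81 TPM there and 0.586 in the other 5 libraries. A higher level there follows from taking loci by their highest library. Where propionate 1 was highest, the same medians were 3.10 and 1.57 TPM. For the other 4 libraries they were 3.55 to 5.90 and 2.57 to 3.96 TPM.

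**Figure D2:**
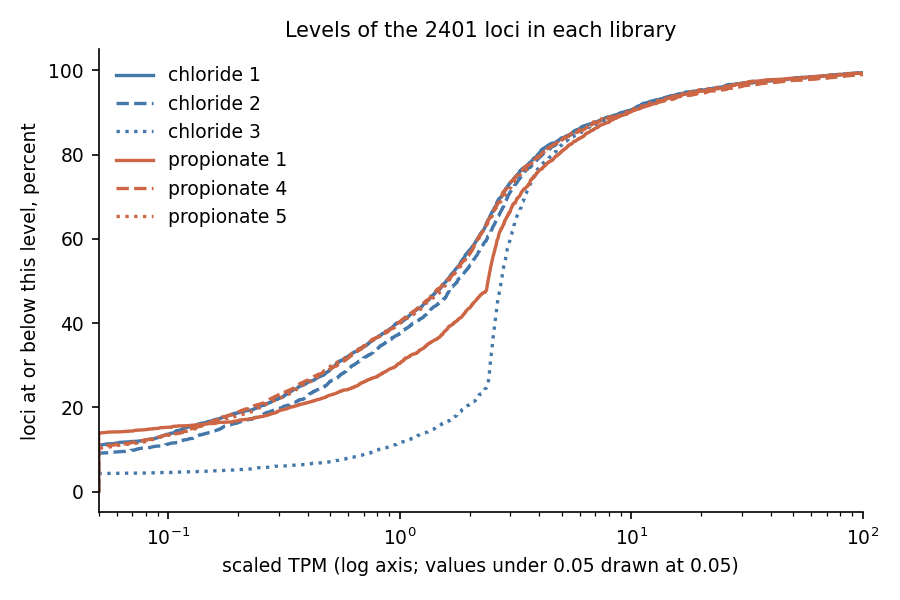
Cumulative share of the 2401 loci (percent, vertical axis) at or below a scaled TPM (log horizontal axis) in each library, with 1 line per library and colours for chloride and propionate. The line of chloride 3 stays low up to its lower quartile at 2.39 TPM and then climbs steeply, propionate 1 has a milder step near its median of 2.40 TPM, and the other 4 libraries lie together.

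Summed over all 2401 loci, the deposited TPM were 14303, 13403 and 16160 under chloride and 14421, 16382 and 12595 under propionate, which is 1.26% to 1.64% of each library. The means were 14622 ± 1406 and 14466 ± 1894 (SD, n = 3 each), and the groups overlapped. Propionate 4 had the highest sum. Without 15 loci that stood on that library (described further on), it was 12568 TPM beside 12540 in propionate 5, and chloride 3 became the highest library.

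Propionate was compared with chloride on log2(scaled TPM + 1), a scale that understates changes of low loci, with limma over all 14821 loci whose mean reached 1 TPM and whose longest transcript reached 200 nt. Of the 2401 single-exon assembled loci 1643 were tested, and 758 were too low. With limma and Benjamini-Hochberg adjustment, 0 of the 1643 were higher (0.0135% of all tested loci were) and 0 were lower (0.0% of all). The lowest adjusted p among them was 0.923. At an unadjusted limma p under 0.05, 37 (2.25%) were higher beside 2.16% of all loci, and 81 (4.93%) were lower beside 2.89% of all. The 3 propionate libraries all lay above the 3 chloride libraries at 46 loci (2.8%, with 5.28% of all loci), and all below them at 144 (8.76%, with 6.36% of all). Chloride 3 was the highest library at the most tested loci, as given above. Each single-exon assembled locus reached at least 1.99 TPM, as deposited, in its highest library, which was chloride 3 for 47.7% of the 2401. Loci could thus be listed through a high chloride value, so the shares beside those of all loci are a description only. Unadjusted limma counts moved with the libraries and settings used. Without chloride 3, 48 of 1538 were higher (3.12%, with 1.42% of all loci) and 37 lower (2.41%, with 1.6%). Without chloride 1, 27 of 1699 were higher (1.59%, with 1.73%) and 131 lower (7.71%, with 3.52%). Without propionate 4, 60 of 1709 were higher (3.51%, with 2.2%) and 71 lower (4.15%, with 2.32%). With a term for chloride 3 and propionate 1, the libraries with fewer covered models, 79 of 1643 were higher (4.81%, with 4.37%) and 114 lower (6.94%, with 4.41%). On TPM as deposited, 19 were higher (1.16%, with 0.398%) and 145 lower (8.83%, with 7.12%). With reference genes in place of loci as the other features, 20 were higher (1.22%, with 2.12%) and 34 lower (2.07%, with 2.33%), so the share lower was then under that of all features.

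The median log2 difference, propionate minus chloride, was -0.04 over the 1643, with 693 above 0 and 950 below, beside 0.01 over all tested loci. It was 0.00 over the 405 loci of at least 5 TPM and -0.08 over the 1238 under 5 TPM. In the latter, the median deviation of a library from the locus mean was 0.18 in chloride 3 and -0.08 to 0.02 in the other 5. The limit given above on how loci came to be listed holds for the median log2 differences too. By position, the median log2 difference was -0.03 inside named genes, -0.02 within 1 kb, -0.01 at 1 to 5 kb, -0.06 at 5 to 50 kb and -0.05 beyond 50 kb. The median standard error was 0.20, against 0.11 over all tested loci. The 95% interval of the difference lay within 2-fold either way for 76.6% of the 1643 on log2(scaled TPM + 1). With a pseudocount of 0.1 this held for 56.1%, so the first share does not bound changes in TPM itself at low loci.

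**Figure D3:**
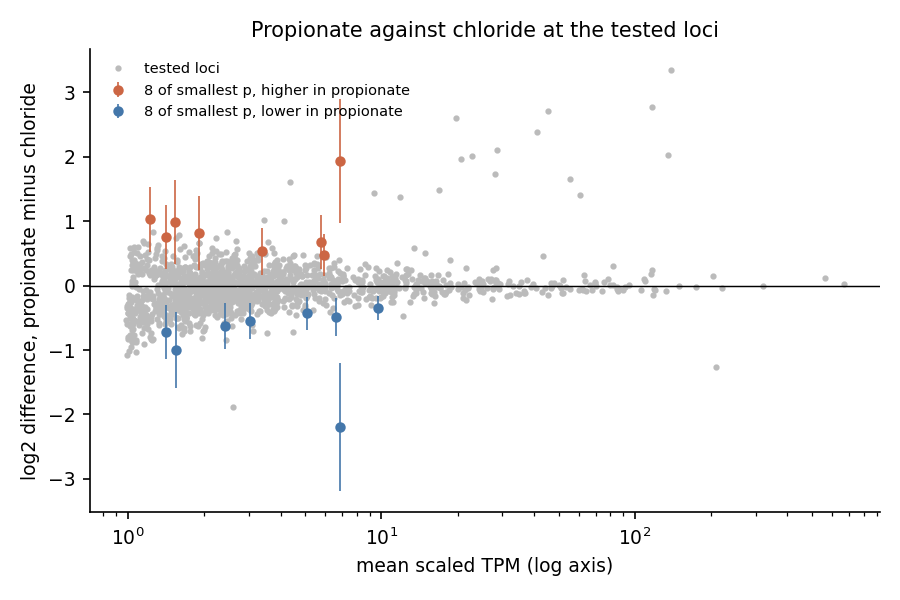
Log2 difference, propionate minus chloride, against mean scaled TPM (log axis) for the 1643 tested loci in grey, with the 8 of smallest p in each direction in colour and their 95% intervals. The cloud narrows from low to high levels, none of the coloured loci passed the adjusted threshold, and the grey points above 1 at higher levels include the loci that stood on propionate 4.

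The 8 loci of smallest p in each direction are named as the naming rule asks, and none passed. Toward higher values, MSTRG.15276 (250 nt) had the smallest p, at 0.652, 0.526 and 0.195 scaled TPM under chloride and 2.60, 1.79 and 1.54 under propionate (log2 difference 1.03, SE 0.21, adjusted p = 0.923 by limma). MSTRG.4487 (206 nt, chr12:3109872-3110077) is 61.8 kb from Gm9077. It stood at 2.003, 1.98 and 1.83 TPM and then 4.48, 19.0 and 11.97, a log2 difference of 1.94 (SE 0.41). The chloride libraries agree closely there and the propionate libraries span a wide range. Without propionate 1 this locus was past the threshold, with a log2 difference of 2.46 and an adjusted limma p of 0.0262, and over all 15 alternative settings it was the single call among single-exon assembled loci. MSTRG.12693, 0.591 kb before Stard9, a kinesin gene, gave 4.95, 4.97 and 2.89 TPM and then 8.14, 7.11 and 6.59. MSTRG.15622 in an intron of Macf1, the gene of a protein that links actin and microtubules, gave 5.17, 4.71 and 4.42 TPM and then 8.73, 5.96 and 6.57. The other 4 (MSTRG.8056, MSTRG.12255, MSTRG.3731 and MSTRG.17920) had differences of 0.53 to 0.98.

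Toward lower values, MSTRG.23564 (579 nt, chrX:18338880-18339458), 4.34 kb before Gm14883, had the smallest p of all single-exon assembled loci (0.00108 unadjusted, adjusted p = 0.923 by limma). It stood at 6.97, 7.64 and 21.6 scaled TPM under chloride and at 0.726, 2.57 and 1.602 under propionate, a log2 difference of -2.20 (SE 0.43). MSTRG.22455 (2333 nt) lies in the span of Hspa8, a constitutive heat shock chaperone, as the files place that gene, and outside any RefSeq gene. This locus gave 2.89, 2.75 and 3.80 TPM and then 1.38, 1.81 and 1.83. Hspa8 itself had means of 1219 and 1096 TPM. MSTRG.9727 (5981 nt), 1.12 kb past AY702103, gave 10.3, 11.4 and 11.4 TPM and then 8.67, 8.57 and 8.03, a log2 difference of -0.35 (SE 0.08). The other 5 (MSTRG.21167, MSTRG.17903, MSTRG.21981, MSTRG.6938 and MSTRG.3122) had differences of -0.997 to -0.43. At all 16 the groups did not overlap, which is a description only, because the loci were picked by their p.

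Spread between libraries was wide. The median coefficient of variation over the 6 libraries was 27.4% for the 1643 tested loci and 10.2% for every tested locus. It fell with level (plot of spread by level): 55.8% at 1 to 2 TPM, 23.6% at 2 to 5, 14.7% at 5 to 20 and 8.71% from 20 TPM on. Loci with a reference transcript gave 25.8%, 16.0%, 9.36% and 6.87% in the same bands, and assembled loci with more exons gave 53.0%, 20.8%, 14.1% and 8.91%. Each single-exon assembled locus reached at least 1.99 TPM, as deposited, in its highest library, which was not required of loci with a reference transcript. At a mean of 1 to 2 TPM this forces some spread, so that band is not a like comparison. The other bands were matched on mean TPM and not on length or reads, and at equal TPM a shorter locus holds fewer reads. Whether the wider spread there goes with length or reads was not tested. With chloride 3 and propionate 1 left out, single-exon assembled loci gave 32.2%, 16.5%, 9.76% and 5.82%, and loci with a reference transcript gave 19.1%, 11.7%, 6.87% and 4.95%.

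**Figure D4:**
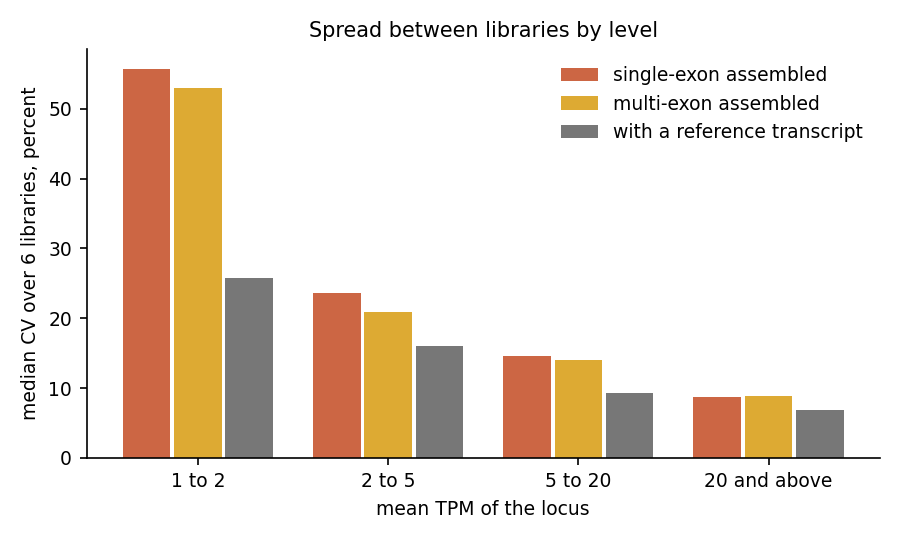
Median coefficient of variation over 6 libraries (percent) of tested loci in 4 bands of mean TPM, with bars for single-exon assembled loci, multi-exon assembled loci and loci with a reference transcript. The bars of single-exon assembled loci fall from 55.8% to 8.71%, and in each band they lie above those of loci with a reference transcript. The lowest band is not a like comparison, because each single-exon assembled locus reached at least 1.99 TPM, as deposited, in its highest library. No band was matched on length or reads.

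Some loci stood on 1 library, which is taken here as a highest value of at least 5 times the median of the 6. This held for 35 of the 1643 (2.13%), 5 of 335 assembled loci with more exons (1.49%) and 13 of 12843 loci with a reference transcript (0.101%). The shares are not a like comparison. Single-exon assembled loci each reached at least 1.99 TPM, as deposited, in their highest library, so a locus could be listed through that library alone. Of the 35, 17 stood on chloride 3, 15 on propionate 4, 2 on propionate 1 and 1 on chloride 1. The 17 on chloride 3 were low, at 2.56 to 4.46 scaled TPM there, with a median over them of 0.448 in the other libraries. The 15 on propionate 4 reached 19.0 to 787 TPM there, and no other library exceeded 24.7 TPM at any of them. The 1 on chloride 1 was MSTRG.18929 (698 nt), named after its values were seen, at 10.02 and 4.83 TPM in chloride 1 and 2 and 0.124 to 0.256 in the other 4 libraries.

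The 15 loci on propionate 4 were 206 to 783 nt long, lay on 11 chromosomes and were inside a named gene in 8 cases. Their sums were 67.2, 68.8 and 55.9 scaled TPM under chloride, and 136, 3949 and 56.5 under propionate. MSTRG.4957 (304 nt, chr12:78350870-78351173) lies in an intron of Gphn, the gene of the synaptic scaffold protein gephyrin. It gave 1.40, 6.66 and 4.95 TPM and then 24.7, 787 and 4.66, while Gphn had means of 12.4 and 14.1 TPM. MSTRG.13456 (435 nt, chr3:5860338-5860772), 109 kb from Gm8797, gave 7.37, 15.2 and 10.8 TPM and then 23.8, 750 and 4.90. Propionate 4 was thus far above the other 5 libraries, and propionate 1 came second at 11 of the 15 loci. MSTRG.11496 in Camk1d, a calcium-dependent kinase gene, gave 234 TPM in propionate 4 and 0.760 to 5.23 elsewhere. MSTRG.7195 in D130009I18Rik gave 259 TPM there and 1.33 to 7.09 elsewhere, and MSTRG.5135 in Gm19951 gave 112 TPM there and 0 to 3.06 elsewhere. MSTRG.2540 in Tmtc2 had the highest coefficient of variation, 235%, with 25.2 TPM in propionate 4 and at most 0.541 elsewhere. MSTRG.4487, given above with its values, is 1 of the remaining loci of the 15, where propionate 1 did not come second, and propionate 5 was its second highest library.

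**Figure D5:**
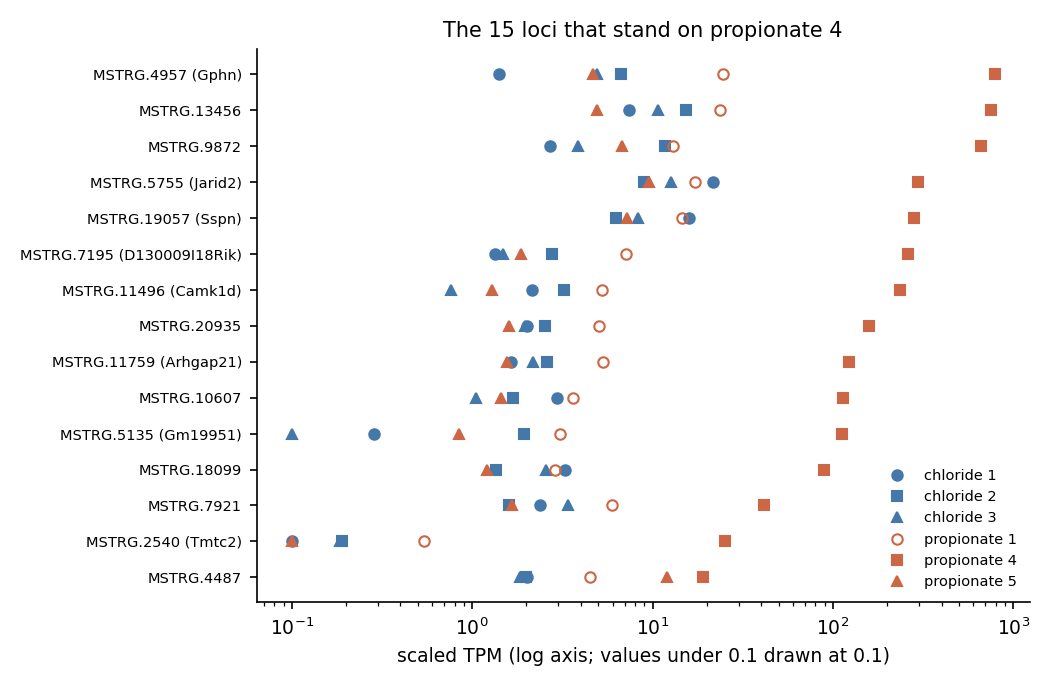
Scaled TPM (log axis) in each library at the 15 loci whose highest value, in propionate 4, was at least 5 times the median of the 6 libraries, ordered by the value in propionate 4, with the host gene in brackets. The filled square of propionate 4 stands right of all other symbols in every row, and the open circle of propionate 1 is next in 11.

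Other transcripts moved with these loci in propionate 4. Lars2, which encodes the mitochondrial leucyl-tRNA synthetase, stood at 169 scaled TPM there and at 5.77 to 10.03 in the other 5 libraries. Gm15564 stood at 182 TPM there and at 0 to 1.98 elsewhere. Both were named after their values were seen, and they are 2 of the 5 loci with a reference transcript that stood on propionate 4. The mitochondrial ribosomal RNAs mt-Rnr1 and mt-Rnr2 stood at 217 and 3176 TPM in propionate 4, within the range of the other 5 libraries (153 to 519 and 2317 to 5697). RNA quality and nuclear ribosomal RNA were not analysed here. With 1 such library, a transcript level in these cells and a property of that library cannot be told apart, and this limit holds for each propionate 4 value of the 15 loci and for their sum. The limma fit of the 15 loci gave no adjusted p under 0.05 for any of them.

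A further locus split the libraries within both groups. MSTRG.23434 (568 nt), on an unplaced scaffold, gave 85.0 scaled TPM in chloride 1 and 403 and 335 in chloride 2 and 3. It gave 327 TPM in propionate 1 and 44.0 and 56.3 in propionate 4 and 5. The groups overlapped, and its coefficient of variation was 78.3%. It is 1 of the 10 loci of highest mean, and its nearest named gene could not be given because the scaffold holds none.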

How the data were processed

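Per the labels' protocols, an RNeasy kit gave total RNA of GL261 cells and a stranded TruSeq Gold kit made the libraries. Tools named in the submitters' processing notes are bcl2fastq, fastp, HISAT2 and StringTie, and the build named is mm10. StringTie 2.1.1 quantified 1 merged set of models in each library, per the file headers. The deposited files give coverage, FPKM and TPM per transcript by the authors, among other fields, and no counts. TPM were summed per locus, and libraries were scaled by the median ratio to the geometric mean. Where a file lacked a gene name on models without coverage, the name came from the other files.

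Loci whose mean reached 1 TPM and whose length reached 200 nt (14821) were tested two-sided on log2(scaled TPM + 1) with limma 3.58.1 in R 4.3.3 (lmFit, eBayes with a variance trend), with Benjamini-Hochberg adjustment and a threshold of 0.05. On simulated data with 14821 loci and changes on the log2(TPM + 1) scale placed at loci with a mean over 4 TPM, 97% of 2-fold and 100% of 4-fold changes were recovered, with 13 false calls. The changed loci were drawn from all classes, and noise was independent between libraries. The shares therefore do not give the recovery for single-exon assembled loci. Tables and plots were made with Python 3.11.15, pandas 2.3.3, numpy 2.4.6 and matplotlib 3.10.9. Distances were taken to models with a reference gene name. GENCODE M21 and RefSeq genes are of the same build.

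The loci, lists and tests were chosen with earlier results of these data known. The naming rule took the 10 loci of highest mean, the 8 of smallest p per direction where under 5 passed, the 3 longest, the 5 with the highest coefficient of variation, the 3 farthest from a named gene and up to 3 per position class. Sequence features over all loci were planned, and genome sequence was not used here. Strand classes covered 86 loci only. Alternatives changed the pseudocount, filters, scaling, model, features and libraries used.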

Additional observations from a re-analysis of the deposited data

How the results depend on the processing

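Under each of 9 settings that changed the pseudocount, filters, scaling, model, features or pair of libraries, 0 single-exon assembled loci were called higher and 0 lower, of 409 (mean of at least 5 TPM) to 2401 (no filter) tested. When 1 library was left out at a time, the number called higher was 0 to 1 (1 without propionate 1, where 4 of all loci were) and the number called lower was 0. Of all loci, 1 was called higher without each of the other libraries. The call, MSTRG.4487, had an adjusted limma p of 0.0683 to 0.9999 in the other settings. Shares at an unadjusted p under 0.05 ran from 0.67% to 4.81% higher (0.398% to 4.37% of all loci) and from 2.07% to 8.83% lower (1.6% to 7.12% of all). The median log2 difference was -0.12 on TPM as deposited (-0.08 over all loci) and -0.08 to -0.01 with 1 library left out. The difference in summed TPM was -155 and ran from -1113 to 780 with 1 library left out. It was -1423 without the loci that stand on propionate 4, a setting chosen after seeing the data. The share of loci outside named genes was 75.6% for same-strand genes among the 86 loci with a strand. The median coefficient of variation was 27.8% on TPM as deposited and 23.1% to 28.4% with 1 library left out.

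The 16 loci named for their difference kept their sign in every setting in which they were tested, and some were not tested in each. Their groups did not overlap. On the same scaled values, leaving out a library or changing the pseudocount could therefore not reverse the sign, and the kept signs are no support. Of the 44 named loci that were tested, 13 with small differences changed sign in some setting, 30 of 647 values. Of the 30, 4 were on TPM as deposited, where the median of all loci moved from 0.01 to -0.08, and the cause of the other 26 was not tested. On TPM as deposited, the log2 difference became -0.074 at MSTRG.8702, -0.025 at MSTRG.3134, -0.031 at MSTRG.5412 and -0.025 at MSTRG.13826. With no filter on low values it became 0.0019 at MSTRG.23380 and 0.0037 at MSTRG.5219. With chloride 3 and propionate 1 both left out it became -0.13 at MSTRG.8702, 0.029 at MSTRG.23380, 0.031 at MSTRG.21931, 0.033 at MSTRG.8518, -0.026 at MSTRG.3134 and -0.010 at MSTRG.19325. With 1 library left out it ran from -0.20 to 0.19 at MSTRG.8702, -0.081 to 0.10 at MSTRG.23380, -0.084 to 0.018 at MSTRG.7375, -0.095 to 0.11 at MSTRG.21931 and -0.051 to 0.040 at MSTRG.5219. The ranges were -0.10 to 0.076 at MSTRG.24316, -0.097 to 0.081 at MSTRG.24319, -0.18 to 0.091 at MSTRG.8518, -0.22 to 0.33 at MSTRG.3134 and -0.32 to 0.018 at MSTRG.15074.

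No paired analysis was possible because the groups share replicate number 1 only. The term for chloride 3 and propionate 1, whose counts are given with the comparison, rests on their number of covered models and not on a replicate number. Depth limits low loci, since TPM do not carry the counting error.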
